A study of Macaca fascicularis and Macaca mulatta and Papio anubis with 20 samples.

Results

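FABP7-high spots are the capture spots of *Macaca fascicularis* dorsal root ganglion sections in which the brain-type fatty acid binding protein FABP7 took the largest share of the transcripts. Visium, the assay used, lays a tissue section on a slide printed with barcoded spots and tells captured transcripts apart by a unique molecular identifier (UMI). Each spot covers a patch of tissue in which cells of more than 1 type can lie. All spots under tissue with at least 1000 UMIs were analysed, and FABP7 was expressed per 10000 UMIs of the spot (CP10K). A spot was FABP7-high if this value was above 0 and at or above the 95th percentile of its section. Of 11090 analysed spots in 15 sections, 564 were FABP7-high and 10526 were other spots, out of 21897 spots under tissue. Both the FABP7 UMIs and the total UMIs of a spot entered the choice, so FABP7 itself is described without a test between classes of spots.

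The sections came from fresh frozen ganglia bought from a vendor, cut at 10 µm and stained with haematoxylin and eosin, and the labels name no treatment, strain or age. They carried 4 title codes, of which batch 1 and batch 2 had a female one and a male one each, with 4 sections each except the male code of batch 2, of which 3 sections had spots to analyse. Consecutive sections lay 100 µm apart, and whether the sections of a code came from the same animal is not stated. Counts were therefore summed by class within each title code, and n = 4 title codes throughout. P-values then rest on how the difference between classes varied over these 4 codes. In the fits described below, the spread of each gene was also moderated by that of all tested genes. The analysed spots of a section summed to between 935169 and 6834515 UMIs (median 3664033), and the FABP7-high spots of a code to 390811, 492500, 400342 and 190798 UMIs. These and all later runs of 4 values are in the order female batch 1, male batch 1, female batch 2, male batch 2.

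Satellite glia are the flat glial cells that wrap the cell bodies of sensory neurons. They take up glutamate through SLC1A3 and turn it into glutamine with GLUL, buffer potassium through the channel KCNJ10, and are coupled by GJA1 gap junctions. FABP7 is an intracellular carrier of long-chain fatty acids that is widely used as a marker of satellite glia and of immature glia. Myelinating Schwann cells, fibroblasts, blood vessels and resident macrophages lie close by, and a spot can cover any of them together with a neuron.

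FABP7 was sparse. Over the analysed spots of a section, between 13.3% and 59.9% held at least 1 FABP7 UMI (median 37.8% of spots, 15 sections). The threshold lay between 3.43 and 9.58 CP10K (median 5.77). Just inside it, the lowest FABP7-high spot of a section had between 3.43 and 9.58 CP10K (median 5.78), and just outside it, the highest other spot had between 3.37 and 9.27 CP10K (median 5.76). Of the 564 FABP7-high spots, 259 (45.9%) held a single FABP7 UMI, 137 held 2 and 168 held 3 or more, up to 12. FABP7-high spots held 1240 of 8651 FABP7 UMIs, or 14.3%. Summed by title code, FABP7 stood at 967, 861, 707 and 812 CPM, FABP7 UMIs per 1000000 UMIs, in FABP7-high spots and at 176, 155, 88.9 and 82.4 CPM in other spots.

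FABP7-high spots were shallow. Their median total was below that of the other spots in 15 of 15 sections, between 1138 and 2703 UMIs (median 2095) against between 1657 and 9334 (median 3826). They detected between 800 and 1459 genes per spot (median over sections 1240), against between 1056 and 3363 (median 1934). When the spots of each section were ordered by total UMIs and split into 5 equal bins, 11.3% of the shallowest bin were FABP7-high, then 6.09%, 4.65%, 2.66% and 0.723% of the deepest. The summed FABP7 level did not follow this course: it was 120, 148, 157, 164 and 148 CPM from the shallowest to the deepest bin. Most results below are also given for FABP7-high spots chosen as the 95th percentile within each of the 5 depth bins (593 spots, shallower than the other spots in 9 of 15 sections). The gene lists and some genes are also given for spots all thinned to 1000 UMIs before the choice (1455 spots, shallower in 4 of 15 sections). After thinning, spots tied at the threshold all entered, so the class held 13.1% of analysed spots, against 5.09% without thinning. It is thus a wider class as well as one chosen at equal depth.

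**Figure D1:**
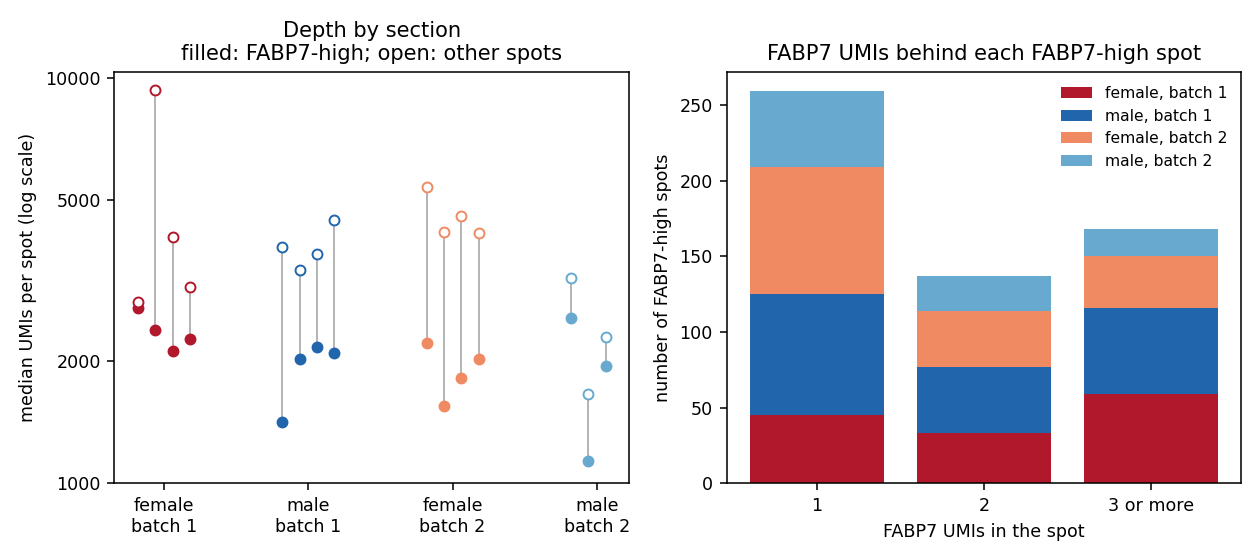
Left: median UMIs per spot (log scale) of each of the 15 sections, filled points for FABP7-high spots and open points for other spots, joined by a line and grouped by title code. Right: number of FABP7-high spots by the FABP7 UMIs they held, stacked by title code. The filled point lies below the open one in every section, and 259 of the 564 spots rest on 1 UMI.

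Over all analysed spots, FABP7 stood at 195 and 174 CPM in the female and male codes of batch 1 and at 103 and 109 CPM in those of batch 2. The batches did not overlap by code. With 2 codes against 2, an exact permutation test cannot go below p = 0.333, the value it gave, so it cannot decide this. By section the level ran from 119 to 237 CPM in the 8 sections of batch 1 (median 184) and from 47.1 to 124 CPM in the 7 of batch 2 (median 105), so the batches overlapped. Space Ranger, the software that made the counts, was version 2.0.0 in batch 1 and 2.1.0 in batch 2, so version and batch cannot be told apart. In the authors' deposited table, the spatial autocorrelation score Moran's I was past an adjusted p of 0.05 for FABP7 in 13 of 16 sections. In that deposited table it ran from 0.0686 to 0.205 in female batch 1, 0.0544 to 0.0884 in male batch 1, 0.0181 to 0.0451 in female batch 2 and 0.00224 to 0.0385 in male batch 2.

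The first comparison set FABP7-high spots against the other spots of the same title codes. Of the tested genes, 8 of 11 of satellite glia were higher in FABP7-high spots, 5 of 10 of myelinating Schwann cells, 7 of 13 of fibroblasts and 6 of 12 of macrophages, and 9 of 14 neuronal genes were lower. edgeR's quasi-likelihood test, with title code as a block and Benjamini-Hochberg adjustment, called 338 genes higher and 303 lower at an adjusted p under 0.05, out of 10672 tested. That is 6.01% of the genes tested, 3.17% higher and 2.84% lower. With another scaling, by relative log expression, it was 457 higher and 168 lower. The number called was 148 without the female code of batch 1, 155 without the male code of batch 1 and 406 without the female code of batch 2. The median log2 fold change over all tested genes was -0.03. A level summed over spots cannot tell fewer cells of a type from less RNA per cell.

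Of 14 satellite glia genes listed, 13 were measured; besides FABP7, SOX2 was too low to test. Of the 11 tested, 8 rose in FABP7-high spots, 0 fell and 3 did not pass the test, with a median log2 fold change of 0.46. With FABP7-high spots chosen within depth bins, where 0.881% of all tested genes were called higher, 3 of the 11 rose (APOE, EDNRB and LGI4) and the median was 0.33. After thinning, where 0.0333% of genes were called higher, 0 of 10 tested passed and the median was 0.15. Among the 305 FABP7-high spots with at least 2 FABP7 UMIs, 4 of 11 rose and the median was 0.50, with 2.36% of all genes called, 1.2% higher and 1.16% lower. The count of 8 rested on both codes of batch 1: 2 of 11 rose without the female code and 1 of 11 without the male code of batch 1, 5 of 11 without the female code of batch 2. Leaving out single sections gave 3 to 8, fewest without section 3 of female batch 1, and 4 without section 4 of male batch 1. In all fits with a code or section left out the 11 log2 fold changes stayed above 0. All 11 were also above 0 in the section-wide and depth-bin choices. After thinning 3 of the 10 tested were below 0, and among spots with a neuronal share at or above the median 1 of 11 was. The list's summed level, FABP7 left out, was higher in FABP7-high spots in 13 of 15 sections, between 6016 and 16412 CPM (median 9769) against between 6735 and 9212 CPM (median 7903). Since markers of several other cell types rose as well, the spots are called FABP7-high and not by a cell type.

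GLUL, glutamine synthetase, stood at 801, 713, 519.6 and 823 CPM in FABP7-high spots and 485, 474, 323 and 652 CPM in other spots, higher in all 4 title codes. This gave a log2 change of 0.54 (SE 0.10, edgeR adjusted p = 1.84e-05). With depth balanced it was 0.18 (adjusted p = 0.19), and after thinning -0.079. The gap junction gene GJA1 stood at 69.1, 56.9, 7.49 and 68.1 CPM against 36.2, 39.5, 5.84 and 38.5 CPM, again higher in 4 of 4 codes. On the log2 scale the difference was 0.68 (SE 0.21, edgeR adjusted p = 0.0299). In the depth-bin choice it was 0.31 (adjusted p = 0.494). The glutamate transporter SLC1A3 was higher in both codes of batch 1 and lower in both of batch 2, at 84.4, 71.1, 9.99 and 21 CPM against 45.5, 43.7, 16.8 and 33 CPM. The fold change of SLC1A3 was 0.46 on the log2 scale (SE 0.20) and did not pass the test (edgeR adjusted p = 0.159). The difference between batches in this gene did not pass the test either (log2 difference, batch 2 minus batch 1, -1.56, SE 0.51, edgeR adjusted p = 0.822). The potassium channel KCNJ10 was at 79.3, 54.8, 9.99 and 26.2 CPM against 57.7, 44.4, 7.95 and 10.9 CPM. Its log2 fold change was 0.42 (SE 0.22, edgeR adjusted p = 0.273).

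APOE, the main lipid-carrying apolipoprotein of glia, stood at 5609, 5281, 5997 and 3050.3 CPM in FABP7-high spots and 4235, 3776, 3969 and 3148 CPM in other spots, higher in 3 of 4 codes and slightly lower in male batch 2. The fit put the log2 change at 0.32 (SE 0.10, edgeR adjusted p = 0.037). Within depth bins the value was 0.34 (adjusted p = 0.000117). The endothelin receptor EDNRB followed the same codes, with 335, 195, 40.0 and 78.6 CPM against 202, 140.3, 33.6 and 120.1 CPM. The fitted log2 fold change was 0.38 (SE 0.13, edgeR adjusted p = 0.0471). Chosen within depth bins, it was 0.41 (adjusted p = 0.00369). LGI4, a secreted ligand by which glia act on one another and on axons, was at 415, 353, 537 and 309 CPM against 268, 227, 412 and 309 CPM, level in male batch 2 and higher in the other 3 codes. The difference came to 0.41 on the log2 scale (SE 0.10, edgeR adjusted p = 0.00466). The depth-bin value was 0.33 (adjusted p = 0.00123). These 3 genes were called in the depth-bin choice too, but not after thinning, where APOE was 0.16 (edgeR adjusted p = 0.225), EDNRB 0.27 (adjusted p = 0.520) and LGI4 0.12 (adjusted p = 0.875). In the section-wide choice none of the 3 passed without the female or without the male code of batch 1, and APOE and EDNRB also missed the threshold without the female code of batch 2. EDNRB was 0.19 without the female code of batch 1.

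The matrix-associated members showed a different course. SPARC, a secreted collagen-binding protein, was at 5801, 4173, 3339.6 and 4135 CPM against 3367, 2662, 2385 and 3571 CPM (log2 fold change 0.49, edgeR adjusted p = 0.000234). TIMP3, an inhibitor of matrix proteases, was at 99.8, 87.3, 49.96 and 78.6 CPM against 60.7, 57.9, 31.8 and 49.2 CPM (0.62, adjusted p = 0.00723). Both were higher in 4 of 4 codes, yet within depth bins SPARC was 0.18 (adjusted p = 0.103) and TIMP3 0.15 (adjusted p = 0.739). PTPRZ1, a receptor phosphatase of immature glia, was at 241, 102, 77.4 and 147 CPM against 120.2, 98.5, 59.3 and 144 CPM, with most of the difference in female batch 1. Its log2 fold change was 0.40 (SE 0.13, edgeR adjusted p = 0.0447). Without the female code of batch 1 its log2 fold change was 0.10. CDH19, a cadherin of the Schwann cell lineage, rested on 11 UMIs in FABP7-high spots and was 1.70 (edgeR adjusted p = 0.0798).

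**Figure D2:**
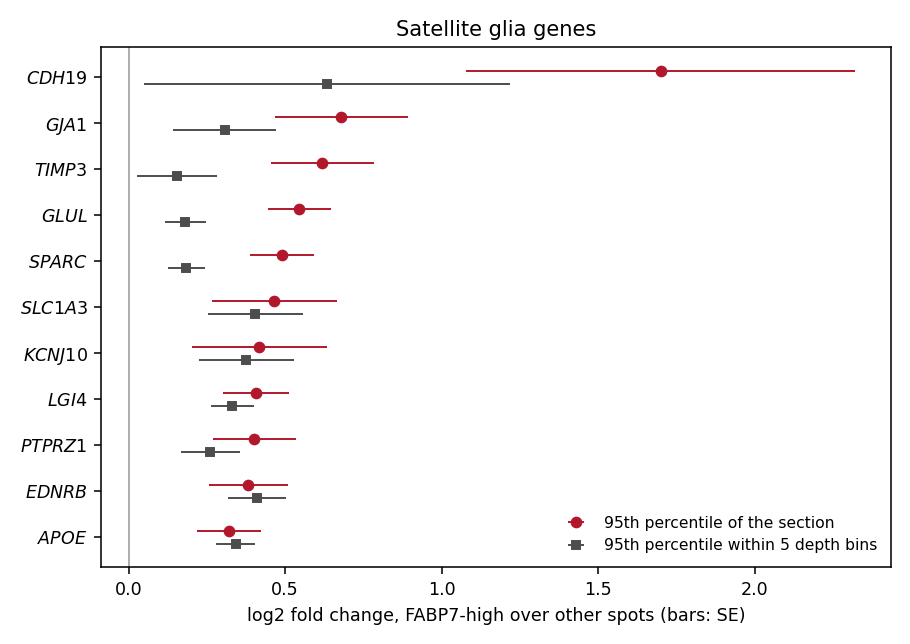
Log2 fold change of the 11 tested satellite glia genes, FABP7-high over other spots, with bars for the standard error, for the section-wide choice of spots (circles) and the choice within 5 depth bins (squares). All points lie above 0, and APOE, EDNRB and LGI4 hardly moved between the choices while GLUL, SPARC and TIMP3 lie nearer to 0 in the depth-bin choice.

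Of 8 tested genes shared by glia in general, 5 rose and 0 fell (median log2 fold change 0.49), and within depth bins 4 rose (median 0.28). VIM, a filament protein of glia and of connective tissue, was at 4526, 3584, 2985 and 3606 CPM against 2565, 2323, 1852 and 2997 CPM. Its log2 fold change was 0.56 (SE 0.10, edgeR adjusted p = 1.29e-05) and within depth bins 0.26 (adjusted p = 0.00365). GPM6B, a membrane glycoprotein, was 0.66 (edgeR adjusted p = 1.99e-07) and within depth bins 0.34 (adjusted p = 0.000948). The small heat shock protein CRYAB was 0.59 (edgeR adjusted p = 5.2e-06) and within depth bins 0.092 (adjusted p = 0.696), and after thinning -0.27.

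Genes of the potassium and glutamate handling list, several of them also in the satellite glia list, gave 4 of 11 higher and 0 lower (median 0.42; 0.26 and 2 higher within depth bins). ATP1B2, a subunit of the glial sodium pump, was at 197, 126, 217 and 199 CPM against 117, 90.2, 178 and 199 CPM. This gave a log2 change of 0.36 (SE 0.12, edgeR adjusted p = 0.047). With depth balanced it was 0.35 (adjusted p = 0.0114). GJC3, a connexin of glia, rose by 0.90 (edgeR adjusted p = 1.78e-06) and within depth bins by 0.53 (adjusted p = 0.00115).

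Lipid genes were described by 4 lists. Of 15 tested genes for lipoproteins and their receptors, 5 rose and 1 fell in the section-wide choice, and 5 rose and 0 fell within depth bins (medians 0.32 and 0.16). APOD, a lipocalin made by glia and by nerve fibroblasts, was at 6842, 4666, 3557 and 1174 CPM against 3598, 2716, 1796 and 1112 CPM. On the log2 scale the difference was 0.68 (SE 0.10, edgeR adjusted p = 1.34e-07). In the depth-bin choice it was 0.30 (adjusted p = 0.00115). LPL, lipoprotein lipase, was at 2282, 1685, 3584 and 6153 CPM against 1251, 1091, 2449 and 5385 CPM, higher in every code. The fit put the log2 change at 0.51 (SE 0.10, edgeR adjusted p = 0.0001). Chosen within depth bins, it was 0.26 (adjusted p = 0.00313). APOC1 and NPC2, a lysosomal cholesterol carrier, were called in both choices, at 0.53 and 0.50 (edgeR adjusted p = 5.7e-05 and 0.000427). CLU, clusterin, was the member that fell (-0.50, edgeR adjusted p = 0.000159; within depth bins -0.19, adjusted p = 0.0839).

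Of 18 tested cholesterol synthesis genes 1 rose, MSMO1, a sterol oxidase (0.35, edgeR adjusted p = 0.03; within depth bins 0.26, adjusted p = 0.0471), and 3 rose within depth bins. HMGCS1, an early enzyme of the pathway, was at 0.21 (edgeR adjusted p = 0.256). Of 13 tested fatty acid metabolism genes, FADS2, a fatty acid desaturase, rose (0.37, edgeR adjusted p = 0.0122; within depth bins 0.33, adjusted p = 0.00206) and ACLY, which makes acetyl-CoA for lipid synthesis, fell (-0.35, adjusted p = 0.0372; within depth bins -0.14, adjusted p = 0.45). Of the other fatty acid binding proteins, 4 were tested without FABP7. PMP2, the myelin member, stood at 179, 140.1, 52.5 and 36.7 CPM against 71.2, 74, 37 and 28.5 CPM. The fitted log2 fold change was 0.92 (SE 0.15, edgeR adjusted p = 6.01e-07). The depth-bin value was 0.11 (adjusted p = 0.82), and after thinning -0.45. FABP3, the heart-type member, was lower in 4 of 4 codes, at 358, 437, 557 and 157 CPM against 536, 465, 679 and 279 CPM. The difference came to -0.42 on the log2 scale (SE 0.11, edgeR adjusted p = 0.00581). Within depth bins it was -0.12 (adjusted p = 0.575).

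Of 10 tested genes of myelinating Schwann cells, 5 rose and 0 fell (3 rose without the male code of batch 1), with a median log2 fold change of 0.69. PRX, the myelin scaffold protein periaxin, was at 502, 435, 177 and 110.1 CPM against 265, 228, 79.1 and 91.9 CPM. Its log2 fold change was 0.87 (edgeR adjusted p = 4.96e-11), and that of PMP22 was 0.41 (adjusted p = 0.00261). Within depth bins 0 of 10 passed and the median was 0.011, with PRX at 0.016 (adjusted p = 0.973). After thinning the median was -0.30 and 1 gene fell. Among 6 tested genes of non-myelinating Schwann cells, 2 rose and 2 fell. The falling ones were NGFR, the low-affinity neurotrophin receptor (-0.35, edgeR adjusted p = 0.0243), and the adhesion molecule L1CAM (-0.35, adjusted p = 0.0272); within depth bins they were -0.15 (adjusted p = 0.384) and -0.04 (adjusted p = 0.914).

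Fibroblast genes depended on the choice of spots. In the section-wide choice 7 of 13 rose and 0 fell, 3 without the female code of batch 1 (median 0.52); within depth bins 1 rose and 4 fell (median -0.24), and after thinning 0 rose and 6 fell (median -0.43). DCN, the collagen-binding proteoglycan decorin, was at 1226, 751, 315 and 147 CPM against 644, 521, 190.4 and 112 CPM (0.66, edgeR adjusted p = 6.01e-07) and -0.034 (adjusted p = 0.933) within depth bins. IGFBP6, which binds insulin-like growth factors, changed sign, from 0.37 (edgeR adjusted p = 0.0141) to -0.31 (adjusted p = 0.00742). Summed over the list, fibroblast genes stood between 1318 and 13961 CPM (median 6592) in the FABP7-high spots of a section and between 1337 and 7808 CPM (median 3639) in the other spots, higher in 14 of 15 sections. Smooth muscle genes moved likewise, with 1 of 6 higher, the pericyte gene RGS5 (0.74, edgeR adjusted p = 0.0165), in the section-wide choice and 2 of 6 lower within depth bins (medians 0.40 and -0.44). Of 7 endothelial genes 0 were called in either, with VWF, the von Willebrand factor gene, at 0.39 (edgeR adjusted p = 0.215). The part of connective tissue RNA in the other results was not tested.

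Of 12 tested macrophage genes, 6 rose and 0 fell (median 0.63), and within depth bins 3 rose, C1QA, C1QC and FCER1G (median 0.36); after thinning 0 of 11 passed (median 0.033). FCER1G, a signalling chain of Fc receptors, was at 287, 201, 157 and 62.9 CPM against 146, 135, 76.3 and 91 CPM, higher in 3 of 4 codes and lower in male batch 2. The log2 fold change was 0.68 (SE 0.12, edgeR adjusted p = 8.13e-06). With depth balanced it was 0.48 (adjusted p = 0.000136). The complement gene C1QC followed the same codes, at 896, 652, 489.6 and 294 CPM against 521, 483, 285 and 389 CPM (0.44, edgeR adjusted p = 0.00133; within depth bins 0.27, adjusted p = 0.0273). The haemoglobin scavenger receptor CD163 was at 0.31 (edgeR adjusted p = 0.135). In the section-wide choice 1 of 12 rose without the female code of batch 1, 3 without the male code of batch 1 and 4 of 12 without the female code of batch 2. The summed list was higher in FABP7-high spots in 13 of 15 sections, between 482 and 2849 CPM (median 1428) against between 665 and 1361 CPM (median 1039). Of 6 lymphocyte genes tested 0 were called, with the pan-leukocyte gene PTPRC at 0.72 (edgeR adjusted p = 0.147).

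Of 14 tested neuronal genes, 9 fell and 1, MAP1B, rose, with a median log2 fold change of -0.36; the summed list was lower in FABP7-high spots in 15 of 15 sections, with medians over sections of 25751 against 31249 CPM. The fall was not seen after thinning, where 0 of 14 passed, 9 were above 0 and the median was 0.014. Without the female code of batch 1, 2 of 14 fell, without the male code of batch 1, 1 of 14, and without the female code of batch 2, 3 of 14; without section 4 of either code of batch 1 it was 6 of 14. NEFH, the neurofilament heavy chain of large neurons, was at 5384, 4652, 3574 and 2290.4 CPM against 7295, 6005, 5635 and 2603 CPM. This gave a log2 change of -0.46 (SE 0.10, edgeR adjusted p = 0.000751). In the depth-bin choice it was -0.28 (adjusted p = 0.00109), the only member called there, where the list's median was -0.12. NEFL, the light chain, was -0.36 and THY1, a surface protein of neurons, -0.39 (edgeR adjusted p = 0.0153 and 0.00642). Of 18 nociceptor genes 1 fell, the GDNF family receptor RET (-0.40, edgeR adjusted p = 0.0116), and SCN11A, a sodium channel of nociceptors, was at -0.33 (adjusted p = 0.0521). Of 8 A-fibre genes 1 fell, PVALB, a calcium-binding protein of proprioceptors, at 238, 412, 339.7 and 142 CPM against 393, 490.5, 502 and 239.9 CPM (-0.56, edgeR adjusted p = 7.92e-05; within depth bins -0.11, adjusted p = 0.581). PIEZO2, the touch channel, was at -0.64 (edgeR adjusted p = 0.065).

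Other pathways with a role in glia gave few calls. Of 15 tested Notch pathway genes and 5 purinergic genes 0 were called in either choice of spots. Of 10 neuregulin and ERBB genes, 2 rose, LGI4 and the membrane protease ADAM10, and NRG1, the axonal growth factor for Schwann cells, was at -0.37 (edgeR adjusted p = 0.0615). Of 5 immediate early and stress genes, 3 perineurial genes and 3 granulocyte genes 0 were called, and of 3 adipocyte genes 1 rose, LPL. The Notch effector RBPJ was at 0.18 and the Notch target HEY1 at -0.032 (edgeR adjusted p = 0.691 and 0.954). FOS, an early response gene, was at 0.18 (edgeR adjusted p = 0.478). Red blood cell genes were at 0 CPM in the FABP7-high spots of every section. Of the 26 mitochondrial gene symbols listed, alternative spellings included, 0 were among the named features.

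**Figure D3:**
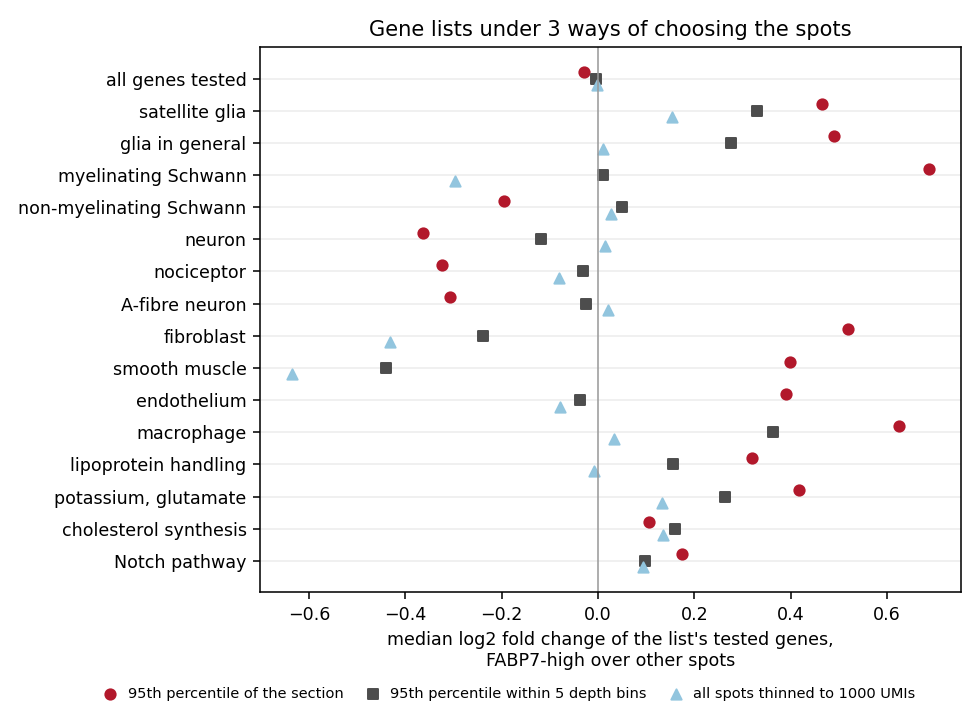
Median log2 fold change of the tested genes of each list, FABP7-high over other spots, for the section-wide choice (circles), the choice within 5 depth bins (squares) and spots thinned to 1000 UMIs (triangles). Satellite glia genes lie above the median of all genes in the 3 choices (0.46, 0.33 and 0.15), whereas fibroblast, smooth muscle and myelin genes move from above 0 to at or below it.

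The largest changes by the naming rule were mostly lost when depth was balanced. The 10 highest were ARHGEF2, TMEM98, BCAS1, METTL7A, EMILIN2, CTSC, LHFPL2, ADHFE1, COL14A1 and SNAP23, with log2 fold changes from 0.98 to 1.55. Of these METTL7A and CTSC were also called within depth bins. METTL7A, a lipid droplet protein, was at 110.0, 67, 62.4 and 47.2 CPM against 37.2, 36.5, 30.4 and 26 CPM, higher in 14 of 15 sections. On the log2 scale the difference was 1.11 (SE 0.18, edgeR adjusted p = 4.2e-07). Chosen within depth bins, it was 0.66 (adjusted p = 0.00115). CTSC, a lysosomal protease, was at 141, 93.4, 17.5 and 31.4 CPM against 55.7, 42, 9.93 and 29.5 CPM (1.07, edgeR adjusted p = 1.38e-06; within depth bins 0.52, adjusted p = 0.0316). The highest value belonged to ARHGEF2, a guanine nucleotide exchange factor, with 36 UMIs in FABP7-high spots (1.55, edgeR adjusted p = 0.00025; within depth bins 0.78, adjusted p = 0.158).

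The 10 lowest were FGF11, GALNT9, TRIM54, KHK, BRAP, ATP2B2, ASPHD2, PCNX2, PTH1R and TBCK, from -1.29 to -0.94, and 0 of them passed within depth bins. TRIM54 had 0 UMIs in the FABP7-high spots of 3 codes and rested on female batch 2, at 0, 0, 35 and 0 CPM against 3.31, 4.66, 63.3 and 9.37 CPM. ATP2B2, a plasma membrane calcium pump of neurons, was at 38.4, 30.5, 27.5 and 26.2 CPM against 57, 57, 80.6 and 43.5 CPM (-1.01, edgeR adjusted p = 0.000225; within depth bins -0.43, adjusted p = 0.077).

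Of the 641 genes called in the section-wide choice, 107 were called in the same direction within depth bins, 84 higher and 23 lower; they were 16.7% of the first list and 79.3% of the 135 called within depth bins (1.27% of 10664 tested). Both choices draw on the same sections and share spots. The 10 highest and 5 lowest of them by the depth-bin value, with at least 20 CPM in the higher class, are named here after their values were seen. The highest were SELPLG, HLA-DMA, METTL7A, TRAF4, VMO1, FXYD5, C2orf88, HMGN4, EGFL8 and PLAC8. SELPLG, a selectin ligand of leukocytes, was 0.96 in the section-wide choice and 0.96 (adjusted p = 0.000436) within depth bins. HLA-DMA, which loads peptides on MHC class II molecules, was 0.81 and 0.68 (adjusted p = 0.0211). EGFL8, a secreted protein with EGF-like repeats, was at 399, 388, 30.0 and 15.7 CPM against 224, 225, 21 and 22.6 CPM, higher in the first 3 codes (0.72, edgeR adjusted p = 4.62e-06; within depth bins 0.57, adjusted p = 2.47e-06). The lowest were TMEM38A, BRSK1, ENTPD6, CHGA and PCP4. PCP4, a calmodulin-binding protein of neurons, was at 199.6, 298, 624 and 409 CPM against 385, 449.6, 1058 and 579 CPM, lower in 4 of 4 codes (-0.75, edgeR adjusted p = 2.69e-08; within depth bins -0.41, adjusted p = 1.73e-05). CHGA, chromogranin A of secretory granules, was -0.65 (edgeR adjusted p = 0.00105; within depth bins -0.41, adjusted p = 0.0104). After thinning SELPLG (-0.15), HLA-DMA (-0.063), FXYD5 (-0.12), HMGN4 (-0.19) and BRSK1 (0.064) changed sign, and the others named here did not. In the section-wide choice with a code or section left out, HLA-DMA lost its call in 7 of 19 fits and SELPLG in 4.

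A direct comparison with the spots of the other main glial cell of the ganglion used myelin-high spots, in which the summed UMIs of myelin genes, among them PMP22 and PRX, took the largest share of UMIs (95th percentile of the section, 563 spots). MBP belonged to the definition but was not among the named features. Of the 564 FABP7-high spots 44 (7.80%) were also myelin-high and were left out, whereas 563 of all 11090 analysed spots were myelin-high. Of 5172 genes tested, 69 were higher and 289 lower in FABP7-high spots (6.92% called, 1.33% higher and 5.59% lower; within depth bins 3.86% and 9.17%). The number called was 50 without the female and 58 without the male code of batch 1. FABP7-high spots were the deeper class here, with a lower median total in 1 of 15 sections. Myelin-high spots had section medians between 1178 and 1768 UMIs. In the depth-bin choice only the FABP7-high spots were chosen by bin, and the myelin-high spots stayed chosen section-wide. The depth-bin values of this comparison are therefore not balanced for depth between the classes.

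APOE was the satellite glia gene that was higher than in myelin-high spots, at 5769, 5354, 5772 and 3064 CPM against 2869.7, 2274, 4879.9 and 2795 CPM. The fit put the log2 change at 0.59 (SE 0.16, edgeR adjusted p = 0.0284). The depth-bin value was 0.55 (adjusted p = 0.0956). GLUL, SPARC and TIMP3 were lower, at -0.63, -1.12 and -1.18 (edgeR adjusted p = 0.0149, 0.0018 and 0.00263), and the other 6 of the 10 tested did not pass. The list's median was above 0 (0.41) although 3 of its 4 calls were lower, and it was -0.0073 after thinning. Among general glial genes CRYAB was -1.97 and GPM6B -0.81 (edgeR adjusted p = 0.000259 and 0.0109). The 7 tested myelin genes not used in the choice had a median of -3.02, which the choice of spots by myelin share fixes in direction, so they are given as a description; MAL, a myelin proteolipid, was -3.02 and PMP2 -2.44. Of 12 fibroblast genes 10 fell (median -1.03), and of 9 macrophage genes 0 were called. Of 13 neuronal genes 4 rose, 0 fell and 9 did not pass, and of 8 nociceptor genes 3 rose, among them TAC1, the substance P gene, and CALCA, the CGRP gene (0.94 and 0.69, edgeR adjusted p = 0.0174 and 0.0469).

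By the naming rule the 5 highest were RASSF5, NPTX2, ROBO2, SYNPR and NSG2. NPTX2 is a neuronal pentraxin, ROBO2 an axon guidance receptor and SYNPR a synaptic vesicle protein. NPTX2 and ROBO2 rested on 11 and 13 UMIs in myelin-high spots. RASSF5, a Ras effector, stood apart with 141, 187, 121 and 103 CPM against 10.3, 33.7, 72.3 and 13.9 CPM (1.94, edgeR adjusted p = 0.00131). Among spots with a neuronal share at or above the median RASSF5 was 0.34. None of the 5 highest passed there (edgeR adjusted p from 0.548 to 0.991). The 5 lowest were SLC36A2, IL17B, CLDN19, GJB1 and DRP2, from -3.37 to -3.08. SLC36A2 and IL17B rested on 5 UMIs each in FABP7-high spots, GJB1 on 7, CLDN19 on 27 and DRP2 on 29. CLDN19, GJB1 and DRP2 are junction and scaffold genes of myelinating Schwann cells.

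Neuron-high spots were chosen likewise from STMN2, TUBB3 and THY1 (UCHL1 was in the definition but not among the named features). Of all 11090 analysed spots 563 were neuron-high, and of the 564 FABP7-high spots 11 (1.95%) were. Of 6722 genes tested 757 were higher and 433 lower (17.7% called, 11.3% higher and 6.44% lower; within depth bins 6.84% and 4.24%), and 605 or 564 were called without the female or the male code of batch 1. FABP7-high spots were shallower than neuron-high spots in 14 of 15 sections, whose medians lay between 1404 and 13856 UMIs. Neuron-high spots too stayed chosen section-wide in the depth-bin choice, so depth was not balanced between these classes either.

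Choosing spots by neuronal share lowers the share of other RNA in neuron-high spots. Rises of satellite glia and other non-neuronal genes over these spots are therefore given as a description. Of 10 satellite glia genes tested against neuron-high spots, 9 rose and KCNJ10 did not pass (0.67, edgeR adjusted p = 0.0757). The median was 0.88. Within depth bins 9 of 10 rose as well, with a median of 0.62, and after thinning 4 of 10 did, with a median of 0.49. Of all genes tested after thinning, 197 of 4391 were called higher. GLUL stood at 806, 729, 523 and 817 CPM against 367, 363, 274 and 471 CPM in neuron-high spots, with no overlap between the classes. The fitted log2 fold change was 0.99 (SE 0.13, edgeR adjusted p = 2.43e-07). GJA1 was at 70.7, 58.8, 7.54 and 69 CPM against 25.5, 17, 6.1 and 21.6 CPM (1.52, edgeR adjusted p = 0.000135; within depth bins 1.08, adjusted p = 0.00451). APOE and EDNRB were 0.66 and 0.78 (edgeR adjusted p = 0.000115 and 0.00216).

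The other lists rose beside them: 9 of 9 myelin genes (median 1.62), 12 of 12 fibroblast genes (median 1.88), 4 of 4 smooth muscle genes (median 1.94) and 9 of 11 macrophage genes (median 1.15). Of 10 neuronal genes not used in the choice, 5 fell and 1 rose, a description since the spots were chosen by neuronal share; NEFH was -0.39 (edgeR adjusted p = 0.0165) and NEFL -0.15 (adjusted p = 0.407). CALCA was -0.47 and TAC1 0.099 (edgeR adjusted p = 0.0262 and 0.721). FABP3 was lower in 4 of 4 codes (-0.64, edgeR adjusted p = 0.00114). By the naming rule the highest were MGP, RELN, MAL, SFRP4 and TMEM98, of which MGP and SFRP4 are connective tissue genes, and the lowest TRIM54, GALNT9, BRAP, ANO5 and NAT16. The 2 comparisons share the FABP7-high spots, and the difference between them was not tested.

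**Figure D4:**
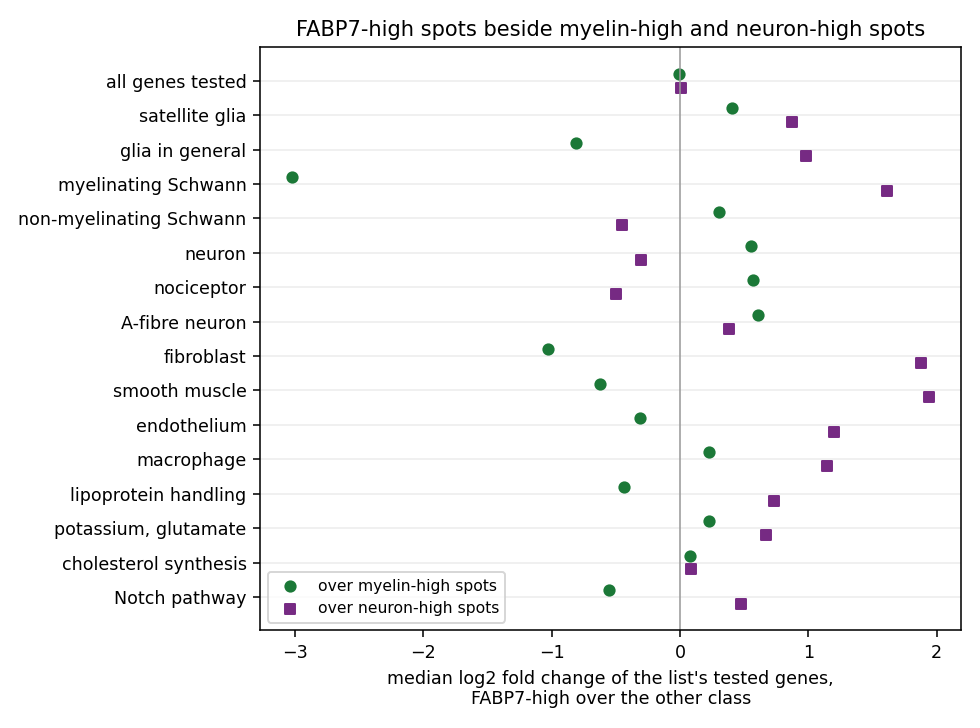
Median log2 fold change of the tested genes of each list, FABP7-high over myelin-high spots (circles) and over neuron-high spots (squares). The satellite glia median lies above 0 in both (0.41 and 0.88), myelin and fibroblast genes lie below 0 in the first and above 0 in the second, and neuronal genes the other way round.

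Position was not used in the choice of spots. Each spot of the hexagonal grid has up to 6 neighbours, and around FABP7-high spots 6.23% ± 3.87 (SD, n = 4 title codes) of the analysed neighbours were FABP7-high, against 4.62% ± 0.164 around other spots. By code the shares around FABP7-high spots were 11.9%, 5.51%, 4.00% and 3.50%, so the 2 codes of batch 1 were above and the 2 of batch 2 below the share around other spots. The difference of 1.61 percentage points had p = 0.75 in an exact two-sided sign-flip test over the 4 codes, which cannot go below 1 in 8. It rested on section 1 of the female code of batch 1, where the share was 27.6%, since without that section the difference was 0.301 points. The difference was 3.45 points with the 90th percentile and 2.01 points after thinning, in each with 4 of 4 codes higher and the smallest p the test allows; within depth bins it was 0.891 points with 2 of 4 codes higher. By section the share was higher around FABP7-high spots in 10 of 15. It was higher in 7 of 15 sections with the 90th percentile, 11 of 15 after thinning and 8 of 15 within depth bins. FABP7-high spots had fewer analysed neighbours than other spots in 14 of 15 sections, with section means between 2.93 and 4.83 against between 3.19 and 5.27.

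**Figure D5:**
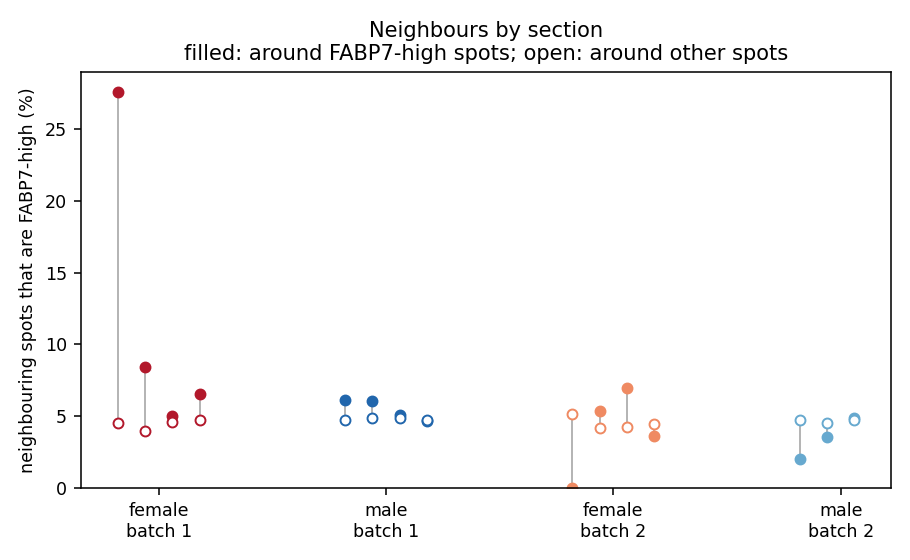
Share of analysed neighbouring spots that were FABP7-high, in percent, around FABP7-high spots (filled) and around other spots (open), for each of the 15 sections by title code. Section 1 of female batch 1, at 27.6%, stands far above the other sections.

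Among the other spots, 1962 touched at least 1 FABP7-high spot and 8564 touched none. FABP7 itself, a description here, was higher in the touching spots in 10 of 15 sections, with section medians of 109 and 99.4 CPM. Of 10900 genes tested 0 were higher and 13 lower in the touching spots (0.119% called; 547 at an unadjusted p under 0.05; DESeq2 called 0), and 2 without the male code of batch 1. Of the 11 satellite glia genes 0 were called, with a median log2 fold change of 0.027. Among the genes that fell were 3 of 14 tested fibroblast genes and 2 of 6 smooth muscle genes. SFRP4, a secreted inhibitor of Wnt signalling, was at 213, 141, 7.87 and 4.6 CPM against 237, 341, 11.2 and 7.29 CPM and lower in 4 of 4 codes. The difference came to -0.71 on the log2 scale (SE 0.10, edgeR adjusted p = 7.36e-05). FBLN1, EFEMP1, ACTA2 and TAGLN were between -0.66 and -0.45, and PLA2G2A, FABP4, MGP, AEBP1 and SOD3, named after their values were seen, also fell. The touching spots had more analysed neighbours in 15 of 15 sections, with section medians of 5.10 against 4.48, and were shallower in 12 of 15; the part of the tissue edge and of depth in this result was not tested. Within depth bins 10 of 13 fibroblast genes and 2 of 6 smooth muscle genes fell, with 0.87% of genes called and 0.843% called lower.

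The difference between FABP7-high and other spots was compared between batches and between sexes. Between batches 0 of 10672 genes passed edgeR's interaction test (0% called, 555 at an unadjusted p under 0.05; DESeq2 called 0). Of the 11 satellite glia genes 10 had a smaller difference in batch 2, with a median of -0.43 on the log2 scale beside -0.056 for all genes, and 0 were called. Within depth bins 14 genes passed, among them APOE (log2 difference, batch 2 minus batch 1, -0.43, adjusted p = 0.00341). Between sexes 1 gene of 10672 passed (0.00937% called, 460 at an unadjusted p under 0.05), the unnamed feature ENSMFAG00000050500. It stood at 2275, 593, 1761 and 1022 CPM in FABP7-high spots and 797, 540.2, 1059 and 1045 CPM in other spots, with the larger excess in FABP7-high spots of both female codes. Its log2 difference, male minus female, was -1.10 (SE 0.21, edgeR adjusted p = 0.00118). No gene was called without section 1 of the female code of batch 1, without that whole code or without the male code of batch 2, and after thinning the feature was at -0.30 and did not pass. With 1 code per sex and batch, sex cannot be told apart from the animals used.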

How the data were processed

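Visium libraries of 15 *Macaca fascicularis* dorsal root ganglion sections were analysed. The deposited values were UMI counts per feature and spot made by the authors with Space Ranger, 2.0.0 (8 sections) or 2.1.0 (7 sections) per the file headers. The submitters' processing notes name the build Mmul_10, while feature identifiers carry the *M. fascicularis* prefix ENSMFAG, so no coordinates are given. Of 22000 features 15068 had a symbol, and unnamed features held 18.6% to 25.1% of UMIs. Moran's I, a score, and its adjusted p-values were taken as deposited by the authors; in 15 of 15 sections the deposited table's FABP7 total equalled the matrix.

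Spots under tissue with at least 1000 UMIs were classed as described, and counts were summed by class and title code (or by section). Each sum was tested with edgeR 4.0.16 in R 4.3.3 (quasi-likelihood, TMM, default low-count filter), with title code as block, FABP7 left out and Benjamini-Hochberg adjustment over all features tested. Title code was in the main fit because both classes come from the same sections. The members, lists and tests were chosen with earlier results of these data known. Named genes were the tested satellite glia genes, from the 3 tested members of each other list with the highest mean CPM, and the 10 (other comparisons: 5) highest and lowest calls with a symbol, the same direction in all 4 codes and at least 20 CPM in the higher class. ACLY, ADAM10, APOC1, C1QA, CLU, GJC3, GPM6B, MAL (against myelin-high spots), MAP1B, NPC2 and RET were named after their values were seen. Alternatives were another UMI minimum (2000), the 90th percentile, depth bins, thinning, spots with a neuronal share at or above the median, relative log expression scaling, no filter, DESeq2 1.42.0, sections as samples, no block, and each code and section left out. Spots with at least 2 FABP7 UMIs were an alternative added after seeing the data. On simulated counts of 10673 genes for the comparison of FABP7-high with other spots, 69% of 2-fold and 88% of 4-fold changes were recovered. No 2 sections of a code agreed within sampling noise. Spot barcodes mark grid positions, and 33 of those in FABP7-high spots occurred in more than 1 section. Spots were not screened for doublets. Intervals on the log2 scale are standard errors. They were computed as the absolute log2 fold change divided by the square root of the quasi-likelihood F statistic. Some genes of the lists are counted but not reported by name here.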

Additional observations from a re-analysis of the deposited data

Results flagged for a closer look

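Of 40 groups of sections or codes examined for a sample far from the others, 2 had one, and chance gives about 1 in 20. In the female code of batch 2, the FABP7 threshold of section 1 was 3.43 CP10K, while its other sections lay between 5.11 and 5.44. In the female code of batch 1, 27.6% of the analysed neighbours of FABP7-high spots in section 1 were FABP7-high, while its other sections lay between 5.02% and 8.42%.

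The unnamed feature ENSMFAG00000050500 differed between sexes in its change from other to FABP7-high spots, by -1.10 on the log2 scale, male minus female (edgeR's interaction test, adjusted p = 0.00118). It was higher in FABP7-high spots in both female codes. The call was lost without section 1 of the female code of batch 1, without that code and without the male code of batch 2, and after thinning the difference was -0.30. With 1 code per sex and batch, sex and animal cannot be told apart.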

How the results depend on the processing

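The calls rested on the title code as replicate block: with no replicate block, 0 genes were called for FABP7-high against other spots, 0 against myelin-high spots, 2 against neuron-high spots, 0 for touching spots and 0 between sexes. With sections as samples, the section took the place of the title code as block, which treats sections of a code as independent. The counts were then 1136 against other spots, 609 against myelin-high spots, 3 for touching spots, 2 between batches and 4 between sexes. The same codes supply both classes, so the pairing comes from the sections themselves.

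Against other spots, the count of 641 became 320 with at least 2000 UMIs, 30 after thinning, 135 within depth bins, 124 among neuron-rich spots (neuronal share at or above the median), 251 with at least 2 FABP7 UMIs and 222 with DESeq2. Leaving out 1 code or section gave 148 to 803. For myelin-high spots it was 189 with at least 2000 UMIs, 589 at the 90th percentile, 102 among neuron-rich spots and 87 with DESeq2. It was 702 with only the FABP7-high spots chosen within depth bins, and 50 to 487 with a code or section left out. For neuron-high spots it was 274 after thinning, 552 among neuron-rich spots and 476 with DESeq2, and 564 to 1399 with 1 left out. For touching spots it was 93 at the 90th percentile, 192 after thinning, 96 within depth bins, 46 with at least 2 FABP7 UMIs, 25 with no filter and 0 with DESeq2, and 2 to 21 with 1 left out. Between batches it was 3 with at least 2000 UMIs, 14 within depth bins and 1 with at least 2 FABP7 UMIs, and 0 to 6 with 1 left out. Between sexes it was 0 at the 90th percentile, after thinning and with DESeq2, 2 among neuron-rich spots, and 0 to 4 with 1 left out. With a code or section left out, the neighbour difference ran from -0.334 points, without the female code of batch 1, to 2.54; over the other alternatives it ran from 0.620 to 3.45. The cause of these shifts was not tested.

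After thinning, 28 of 70 named genes changed sign: APOD (-0.012), ARHGEF2 (-0.044), ATP2B2 (0.19), BCAS1 (-0.088), BRSK1 (0.064), CRYAB (-0.27), DCN (-0.36), EMILIN2 (-0.23), FABP3 (0.044), FXYD5 (-0.12), GLUL (-0.079), HLA-DMA (-0.063), HMGN4 (-0.19), IGFBP6 (-0.82), L1CAM (0.11), LHFPL2 (-0.22), NEFH (0.0081), NEFL (0.062), NRG1 (0.28), PMP2 (-0.45), PMP22 (-0.18), PRX (-0.27), PVALB (0.090), SELPLG (-0.15), SPARC (-0.030), TBCK (0.14), TIMP3 (-0.19) and TMEM98 (-0.22). Within depth bins DCN (-0.034) and IGFBP6 (-0.31) did, with at least 2 FABP7 UMIs IGFBP6 (-0.037), and among neuron-rich spots KCNJ10 (-0.34). Under scaling by relative log expression 63 of 71 kept their side of the threshold and 0 changed sign. A FABP7-high spot rests on few FABP7 UMIs, so its class is uncertain where depth is low.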
